A study of Homo sapiens with 24 samples.

Results

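The IGF2BP, LIN28B and HMGA genes are a small group of oncofetal genes, active in embryonic tissue and in many tumours and low in most adult tissue. Members were taken by symbol and are IGF2BP1, IGF2BP2, IGF2BP3, LIN28B, HMGA1 and HMGA2, hence 6 of the 19242 entries that name 1 gene. All 6 had a row of their own. After a filter on low counts 5 were tested and HMGA2 was not.

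The libraries came from HEK293, an established human embryonic kidney cell line, in a SLAM-seq experiment that follows RNA loss. The ZC3H7B-OE line overexpresses ZC3H7B, a zinc finger protein, and the control line carries Flag/HA. With 1 line per condition, overexpression and any other difference between the lines cannot be told apart. Both lines received 100 µM 4-thiouridine (s4U) together with 1 µg/mL doxycycline for 24 h, and unlabelled uridine at 10 mM then replaced the label. A change of medium every 6 h is recorded for all 24 libraries. Poly(A) RNA was collected 0, 2, 4 and 6 h later, with 3 libraries per line and time and 24 in all. No library without s4U or doxycycline was analysed here. Nothing in the labels says whether the 3 libraries of a group are separate cultures. P-values therefore measure the spread between these libraries, which may be technical. Alkylated s4U is read as C in place of T, and a read with such conversions is called labelled below.

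Let-7 microRNAs accumulate as cells differentiate and repress mRNAs that carry matches to their seed, among them LIN28B, HMGA2 and the IGF2BP genes. LIN28 proteins bind let-7 precursors and block their maturation, which makes LIN28B both a target and an inhibitor of let-7. IGF2BP proteins bind mRNAs and are known to protect them from decay, and HMGA proteins are architectural factors that bind AT-rich DNA.

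The let-7 family is shown because members of the group are known as its targets. In RefSeq (GRCh38.p14) 9 mature miRNAs from 12 loci shared 1 seed, GAGGUAG, bases 2 to 8, and 4 of them are written here 5′ to 3′ with the seed in capitals.
let-7a: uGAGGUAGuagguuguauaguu
let-7b: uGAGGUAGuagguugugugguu
let-7g: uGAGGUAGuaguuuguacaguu
miR-98: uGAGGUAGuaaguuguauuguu

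Matches to the seed were counted on the sense strand of the 3′ UTR of 1 APPRIS principal transcript per gene in GENCODE v29. They were the 8mer CTACCTCA, the 7mer CTACCTC without that last A, and the 7mer TACCTCA where no C precedes it, so that no match was counted under more than 1 name. LIN28B and IGF2BP1 held 5 matches each, IGF2BP2 held 2, IGF2BP3 and HMGA1 held 1 each, and HMGA2 held 7. LIN28B and HMGA1 lie on chromosome 6, IGF2BP1 on chromosome 17, IGF2BP2 on chromosome 3, IGF2BP3 on chromosome 7 and HMGA2 on chromosome 12. Of 18909 genes with a 3′ UTR, 14% held at least 1 match. Their median 3′ UTR had 876 bases, while those of the members had 1347 (HMGA1) to 6206 (IGF2BP1). As members have longer 3′ UTRs and are known as let-7 targets, the share is no like comparison and no enrichment is read from it. The transcript rule was changed after a first result was seen. Taking the longest 3′ UTR of each gene instead gave HMGA2 0 matches, on a different transcript with a 3′ UTR of 7421 bases in place of 3003, left the other 5 counts as they are, and gave a match to 15.5% of 19115 genes. One match of each member is shown with its surroundings, the match in capitals, in the letters of the DNA strand that reads like the mRNA. A match describes these letters and is not a measured site.
LIN28B: tttacccggttgcaaagtCTACCTCAtg
IGF2BP1: cgagtataaatggattaaCTACCTCAat
IGF2BP2: aaaaacacacagaagaagCTACCTCAgg
IGF2BP3: acgtgcatttttactcaaCTACCTCAgg
HMGA1: ttttcctctgttcacaaaCTACCTCtg
HMGA2: ggcgccaacgttcgatttCTACCTCAgc

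Depth ran between 1502068 and 3676254 reads per library. It differed with chase time, at 1502068 to 2053311 reads at 0 h and 2767623 to 3676254 at 6 h. The share of reads in 10 genes was 7.20 to 10.7% at 0 h and 3.56 to 3.86% at 6 h. Changes over the chase are thus relative levels, and the part of depth and composition in them was not tested. The control library of 0 h, replicate 3, stood apart, with 10.7% of its reads in 10 genes and 11032 genes with a read, and what the calls at 0 h become without it is given with them. Levels are given as CPM, read counts scaled to library size with TMM factors. ZC3H7B itself had 254 to 463 CPM in ZC3H7B-OE libraries and 192 to 376 CPM in control libraries, and the lines overlapped at 2 h and at no other time. Its mean over the chase times was 0.28 higher in ZC3H7B-OE on the log2 scale (SE 0.08, adjusted p = 0.00347, edgeR). The higher value lay in unlabelled ZC3H7B reads, which averaged 170 CPM in ZC3H7B-OE and 83.7 CPM in control. Labelled ZC3H7B reads averaged 157 CPM in ZC3H7B-OE and 186 CPM in control. The counted region is not given in the sources used here, so reads from the introduced copy may or may not be among them. Of the markers listed for the HEK293 line, 4 of 7 were tested and none passed for a line difference (lowest adjusted p = 0.126, edgeR). Their reads in ZC3H7B-OE and control were 440 and 352 for EYA1, 327 and 397 for KRT8, 289 and 232 for KRT18, and 125 and 116 for VIM. Of those not tested, NEFM had 1 read in each line, PAX2 had 10 and 3, and LHX1 had 22 and 54. No fibroblast marker of 6 passed the filter. Of 6 leukocyte markers 3 were tested and none passed for a line difference (lowest adjusted p = 0.107, edgeR). These 3 were detected, with reads in ZC3H7B-OE and control of 2287 and 1908 for CD68, 148 and 121 for FCER1G, and 120 and 64 for CD79A. PTPRC and CD3E had 0 reads, and LYZ had 0 and 1. Of 5 markers of differentiated epithelium EPCAM alone was tested and was lower in ZC3H7B-OE, at -0.46 on the log2 scale (adjusted p = 0.0148), and its part in any result was not tested. In bulk RNA, fewer cells of a type and less RNA per cell cannot be told apart.

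The lines were first compared over all reads, as the mean of the 4 chase times, with edgeR's quasi-likelihood test and Benjamini-Hochberg adjustment over 10038 genes. LIN28B and IGF2BP3 were lower in ZC3H7B-OE, HMGA1 was higher, IGF2BP2 was slightly higher, a call lost in 23 of 34 alternatives, and IGF2BP1 did not pass. The calls thus took in 4 of 5 tested members, 2 higher and 2 lower, where 45.8% of all tested genes were called, 20.4% higher and 25.4% lower. With calls this common, the number of members called is no result by itself, and the sizes follow gene by gene.

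**Figure D1:**
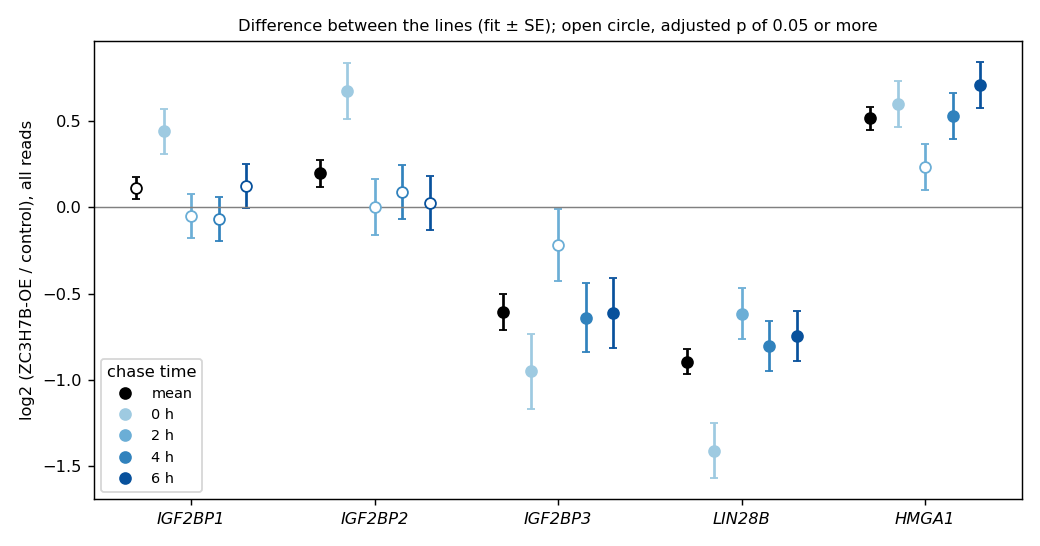
Log2 difference between ZC3H7B-OE and control in all reads for the 5 tested members, as the mean of the chase times (black) and at each chase time (blue, darker with time); whiskers are the SE of the fit and open circles have an adjusted p of 0.05 or more. LIN28B lies below 0 at each time, HMGA1 above 0, and IGF2BP1 and IGF2BP2 stand clear of 0 at 0 h.

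LIN28B, the let-7 inhibitor, had the largest difference among the members. At 0 h it had 60.9, 78.2 and 88.4 CPM in ZC3H7B-OE, against 177, 177 and 256 CPM in control. At 2 h it had 240, 206 and 208 CPM in ZC3H7B-OE, against 345, 320 and 338 CPM in control. At 6 h it had 237, 278 and 234 CPM in ZC3H7B-OE, against 408, 373 and 473 CPM in control. Every ZC3H7B-OE library lay below every control library at each of the 4 times. The mean log2 difference was -0.89 (SE 0.07, adjusted p = 1.32e-11, edgeR), a level 0.538 times that of control. All 34 alternatives kept this call, with values between -0.93 and -0.85 when a library was left out.

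At the start of the chase the log2 difference of LIN28B was -1.41 (SE 0.16, adjusted p = 3.92e-08, edgeR), where 31.2% of genes were called. It was -0.62 after 2 h, where 9.46% were called, -0.80 after 4 h, where 17.7% were, and -0.74 after 6 h, where 15.8% were, and each passed. The test of line by chase interaction takes the differences at 2, 4 and 6 h together against that at 0 h. LIN28B did not pass it (adjusted p = 0.110, edgeR, with 1.73% of genes called). It passed with DESeq2 (adjusted p = 0.0238) and without control 0 h replicate 1 or 2 (adjusted p = 0.0443 and 0.0440, edgeR). The interaction passed for no other member, except IGF2BP2 without control 0 h replicate 2 (adjusted p = 0.0456).

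LIN28A, the paralogue of LIN28B, is set beside it because it too blocks let-7 maturation. It had 5 reads in 3 of 12 ZC3H7B-OE libraries and 19 reads in 8 of 12 control libraries, pooled to 0.175 CPM in ZC3H7B-OE (exact 95% Poisson interval 0.0570 to 0.409) and 0.657 CPM in control (0.396 to 1.03). None of these reads was labelled, and LIN28A did not pass the filter. These intervals cover counting error only.

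IGF2BP3, an mRNA-binding protein of the fetal type, was also lower in ZC3H7B-OE. At 0 h it had 43.8, 29.9 and 28.9 CPM in ZC3H7B-OE, against 68.6, 48.8 and 82.5 CPM in control. At 4 h it had 46.5, 42.2 and 36.8 CPM in ZC3H7B-OE, against 63.5, 62.3 and 70.0 CPM in control. The lines did not overlap at 0, 4 and 6 h and overlapped at 2 h. The mean log2 difference was -0.60 (SE 0.10, adjusted p = 1.35e-05, edgeR), and all 34 alternatives kept the call. By time the difference was -0.95 (0 h), -0.22 (2 h, which did not pass), -0.64 (4 h) and -0.61 (6 h). The 6 h libraries held 97 to 204 reads of IGF2BP3. Its 4 h call was lost without ZC3H7B-OE replicate 2 or 3 or control replicate 1 or 3 of that time (-0.66 to -0.56). The 6 h call was lost in 7 of 31 alternatives, among them without ZC3H7B-OE replicate 2 or 3 or any control replicate of that time. It was -0.43 without ZC3H7B-OE replicate 2 (adjusted p = 0.230, edgeR).

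IGF2BP1, which stabilises MYC mRNA among others, differed at 0 h. It had 684, 640 and 629 CPM in ZC3H7B-OE at 0 h, against 508, 567 and 362 CPM in control, and the lines did not overlap. The log2 difference at 0 h was 0.44 (SE 0.13, adjusted p = 0.00888, edgeR), and 0.28 without control 0 h replicate 3 (adjusted p = 0.0640), which had the lowest value. The lines overlapped at 2 and 4 h. They did not overlap at 6 h, with 660, 618 and 604 CPM in ZC3H7B-OE against 552, 589 and 589 CPM in control, and that difference of 0.12 did not pass (adjusted p = 0.554).

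For IGF2BP1 the mean over the times was 0.11 (SE 0.06, adjusted p = 0.163), and 0.18 without the 2 h libraries, which passed (adjusted p = 0.0440).

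IGF2BP2, the member of its family that is most widely kept in adult tissue, also differed at 0 h. At 0 h it had 122, 119 and 128 CPM in ZC3H7B-OE, against 69.0, 94.8 and 66.9 CPM in control. The lines did not overlap at 0 h and overlapped at 2, 4 and 6 h. The log2 difference at 0 h was 0.67 (SE 0.16, adjusted p = 0.00199, edgeR). The mean of 0.19 (SE 0.08) passed narrowly (adjusted p = 0.0443), lost its call in 23 of 34 alternatives and was 0.06 without the 0 h libraries (adjusted p = 0.575).

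HMGA1, a chromatin factor, was higher in ZC3H7B-OE. At 0 h it had 3471, 3230 and 3749 CPM in ZC3H7B-OE, against 2630, 2536 and 1743 CPM in control. At 4 h it had 2306, 2288 and 2247 CPM in ZC3H7B-OE, against 1473, 1571 and 1698 CPM in control. At 6 h it had 1610, 1695 and 1999 CPM in ZC3H7B-OE, against 1136, 1047 and 1071 CPM in control. ZC3H7B-OE lay above control without overlap at these 3 times and overlapped it at 2 h. The mean log2 difference was 0.51 (SE 0.07, adjusted p = 1.05e-07, edgeR), kept by all 34 alternatives. By time it was 0.60 (0 h), 0.23 (2 h, which did not pass), 0.53 (4 h) and 0.71 (6 h). GENCODE names 7 processed pseudogenes of HMGA1, and how the counting treated reads shared with them is not given, so its values are uncertain to that extent.

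HMGA2, the paralogue of HMGA1 and a classic let-7 target, was almost undetected. It had 1 read in ZC3H7B-OE (4 h, replicate 1) and 1 read in control (4 h, replicate 2), neither labelled. Over all 24 libraries this is 0.0348 CPM (exact 95% Poisson interval 0.00422 to 0.126). No difference between the lines could be detected at this depth.

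With only the 6 libraries of 0 h in the fit, the 0 h calls of IGF2BP1, IGF2BP2, IGF2BP3 and HMGA1 were lost (adjusted p = 0.190, 0.0743, 0.0642 and 0.106, edgeR), with log2 differences of 0.45, 0.69, -0.93 and 0.61. That of LIN28B was kept. Without control 0 h replicate 3, the library that stood apart, the 0 h differences were -1.22 for LIN28B, -0.79 for IGF2BP3, 0.59 for IGF2BP2 and 0.43 for HMGA1, and each of these 4 still passed. The mean difference of IGF2BP2 no longer passed without it (0.17, adjusted p = 0.0532, edgeR).

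**Figure D2:**
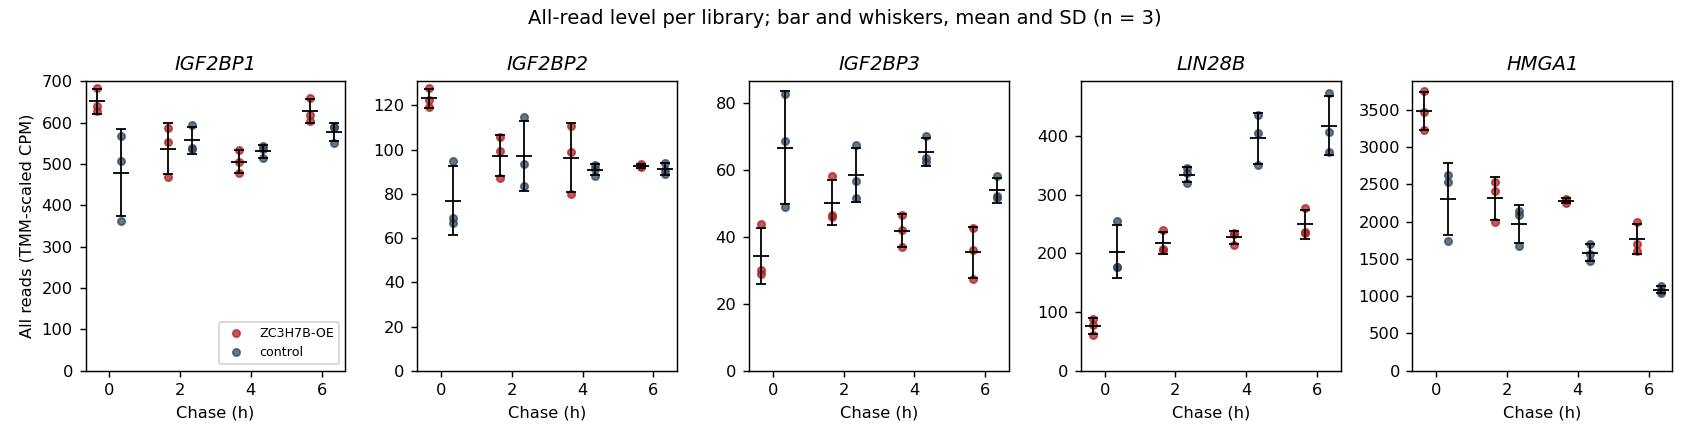
All reads of each tested member in TMM-scaled CPM (y axis, from 0) against hours of chase, 1 point per library, ZC3H7B-OE in red left of control in dark blue, with mean and SD of 3 libraries. LIN28B climbs with the chase in both lines and HMGA1 declines, with ZC3H7B-OE below control for LIN28B and above it for HMGA1.

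Levels also moved with the chase within each line. Over the 4 times in order, LIN28B averaged 75.9 ± 13.9, 218 ± 19.0, 227 ± 11.5 and 249.7 ± 24.7 CPM in ZC3H7B-OE. In control it averaged 203 ± 45.7, 334 ± 13.0, 397 ± 43.4 and 418 ± 50.9 CPM (SD, n = 3 each). It rose by 1.72 in ZC3H7B-OE and by 1.05 in control between 0 and 6 h on the log2 scale (adjusted p = 2.09e-11 and 2.40e-07, edgeR). HMGA1 moved the other way and fell by 0.98 in ZC3H7B-OE and by 1.09 in control (adjusted p = 1.19e-07 and 1.87e-08). Without control 0 h replicate 3 the control changes were 1.26 for LIN28B and -1.24 for HMGA1, and both passed.

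IGF2BP2 fell by 0.41 in ZC3H7B-OE (adjusted p = 0.0233, edgeR). That call was lost in 3 of 30 alternatives, among them without ZC3H7B-OE 0 h replicate 3 (-0.38) or 6 h replicate 3 (-0.40). In control IGF2BP2 gave 0.24 (adjusted p = 0.202, edgeR), or 0.44 without control 0 h replicate 2, which passed. IGF2BP1 and IGF2BP3 passed in neither line, except IGF2BP1 in control with DESeq2 (0.26) or without control 0 h replicate 2 (0.42). The counts were 3 of 5 members in ZC3H7B-OE, where 63.4% of genes were called, and 2 of 5 in control, where 60.6% were. The change over 6 h differed between the lines for 0 of 5 members by edgeR, where 2.52% of genes were called. LIN28B came nearest, with a log2 difference of 0.67 (SE 0.21, unadjusted p = 0.00366, adjusted p = 0.0831 in edgeR), and was the member that passed with DESeq2 (0.72, adjusted p = 0.0291). It also passed in edgeR without control 0 h replicate 1 or 2 (0.74 each). IGF2BP2 gave -0.65 (unadjusted p = 0.00696, adjusted p = 0.117, edgeR) and passed without control 0 h replicate 2 (-0.85).

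The labelled share, the percentage of a gene's reads that are labelled, was high for LIN28B at the start. At 0 h it was 99.0, 94.4 and 95.4% in ZC3H7B-OE, against 98.1, 98.8 and 96.8% in control. At 4 h it was 29.2, 29.2 and 32.1% in ZC3H7B-OE, against 43.3, 41.7 and 40.8% in control. At 6 h it was 17.1, 20.9 and 16.2% in ZC3H7B-OE, against 22.6, 22.3 and 22.1% in control. The lines overlapped at 0 h, and ZC3H7B-OE was below control without overlap at 2, 4 and 6 h. Over all genes together the share was also lower in ZC3H7B-OE without overlap at 2 and 4 h. It was 70.8 to 72.4% against 73.7 to 77.2% at 2 h, and 45.1 to 46.1% against 47.2 to 48.6% at 4 h. At 0 and 6 h the whole libraries of the lines overlapped.

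The share was compared as labelled odds, the ratio of labelled to unlabelled reads, in an edgeR fit over 8490 genes. The mean log2 odds were lower in ZC3H7B-OE for LIN28B by a difference of -0.72 (SE 0.16, adjusted p = 0.000413), for IGF2BP3 by -0.73 (SE 0.20, adjusted p = 0.00749) and for IGF2BP1 by -0.25 (SE 0.08, adjusted p = 0.0210). IGF2BP2 gave 0.05 and HMGA1 -0.07, and neither passed. So 3 of 5 members were called, all lower, where 12.2% of genes were called and 11% were lower, and the median over all genes was -0.13. The call of IGF2BP1 was lost when labelled and unlabelled reads were each scaled to their own total (-0.15, adjusted p = 0.201). Leaving out a single library also ended it: replicate 1 of ZC3H7B-OE at 0 h or 6 h, replicate 2 of ZC3H7B-OE at 4 h, or replicate 1 of control at 0 h or 2 h (-0.23 to -0.20). The calls of LIN28B and IGF2BP3 were kept in all 27 alternatives. These means take in 0 h, where LIN28B had 1 to 9 unlabelled reads per library and IGF2BP3 had 3 to 19. Their odds at 0 h thus rest on few unlabelled reads.

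At single times the odds of LIN28B passed at 2 h (-0.77, adjusted p = 0.00653, edgeR) and at 4 h (-0.74, adjusted p = 0.00326), where 6.18% and 4.22% of genes were called. The median over all genes was -0.30 at 2 h and -0.15 at 4 h. Counted from the lowest value, LIN28B ranked 1994 at 2 h and 1049 at 4 h of 8490 genes, so many genes had a larger drop. At 0 h and 6 h LIN28B gave -0.995 and -0.37 and did not pass, where 1.06% and 7.53% of genes were called. The 2 h call was lost with own-total scaling (-0.48) and without control 2 h replicate 2 (-0.56). For IGF2BP3, the share at 4 h was 26.2, 36.8 and 42.6% in ZC3H7B-OE, against 50, 50.9 and 50.5% in control. Shares of IGF2BP3 were lower in ZC3H7B-OE without overlap at 2, 4 and 6 h, as those of whole libraries were at 2 and 4 h. No single time of IGF2BP3 passed the test, except 2 h when control 2 h replicate 1 was left out (-1.48). The share of HMGA1 was lower in ZC3H7B-OE without overlap at 0 and 4 h, and that of IGF2BP2 was higher without overlap at 0 h. At 2 h IGF2BP1 also passed without control 2 h replicate 3 (-0.71), and HMGA1 passed with own-total scaling (0.35).

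**Figure D3:**
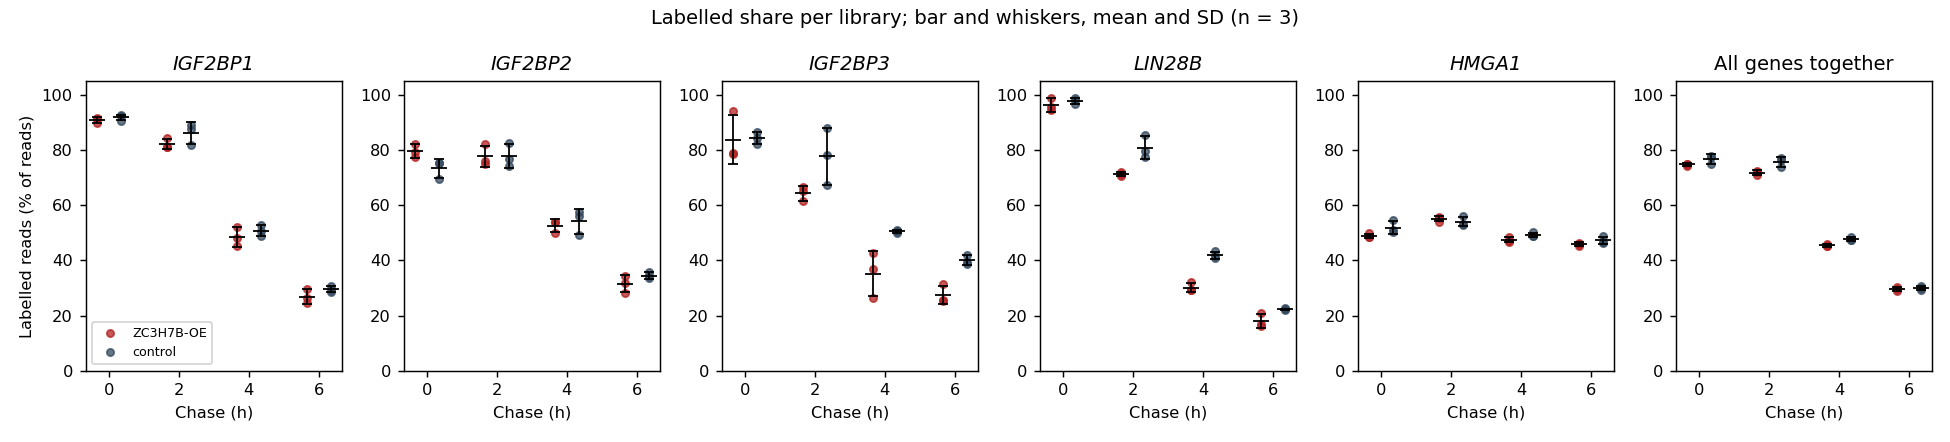
Labelled reads as a percentage of reads (y axis) against hours of chase for the 5 tested members and for all genes together, 1 point per library, ZC3H7B-OE in red left of control in dark blue, with mean and SD of 3 libraries. HMGA1 stays between 45.1% and 55.9% while the other members and the whole library fall.

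The share of HMGA1 at 6 h was close to that at 0 h, with a higher share at 2 h in ZC3H7B-OE. The ZC3H7B-OE libraries held 49.8, 48.5 and 48.5% at 0 h, and 46.1, 45.1 and 46.5% after 6 h. The control libraries held 50.1, 50.9 and 54.6% at 0 h, and 48.7, 46.4 and 46.7% after 6 h. The 6 h libraries lay below the 0 h libraries without overlap in both lines. At 2 h the share was 54.0, 55.8 and 55.4% in ZC3H7B-OE, above its 0 h libraries without overlap, and 55.9, 53.3 and 52.9% in control, where it overlapped them. Pooled, ZC3H7B-OE had 48.9% at 0 h and 55.1% at 2 h, and control had 51.2% and 54.2%. The pooled share at 6 h minus that at 0 h was -3.02 points in ZC3H7B-OE and -3.89 points in control, against a median over genes of -53.9 points in ZC3H7B-OE and -56.2 points in control. HMGA1 ranked 264 of 5297 genes in ZC3H7B-OE and 193 of 5336 in control counted from the highest value, among genes with at least 100 pooled reads. A change of at most 5 points between 0 and 6 h was seen in 6.25% of genes in ZC3H7B-OE and 3.88% in control. Whether the pseudogene copies had a part in this was not tested.

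LIN28B stood at the opposite end of the group, with -77.5 points in ZC3H7B-OE and -75.6 points in control. IGF2BP1 had -64.3 points in ZC3H7B-OE and -62.5 points in control. IGF2BP2 had -48.3 points in ZC3H7B-OE and -38.8 points in control, and IGF2BP3 had -55.7 points in ZC3H7B-OE and -44.7 points in control. The size of the change in share thus differed widely among the members, and these pooled values were not tested.

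**Figure D4:**
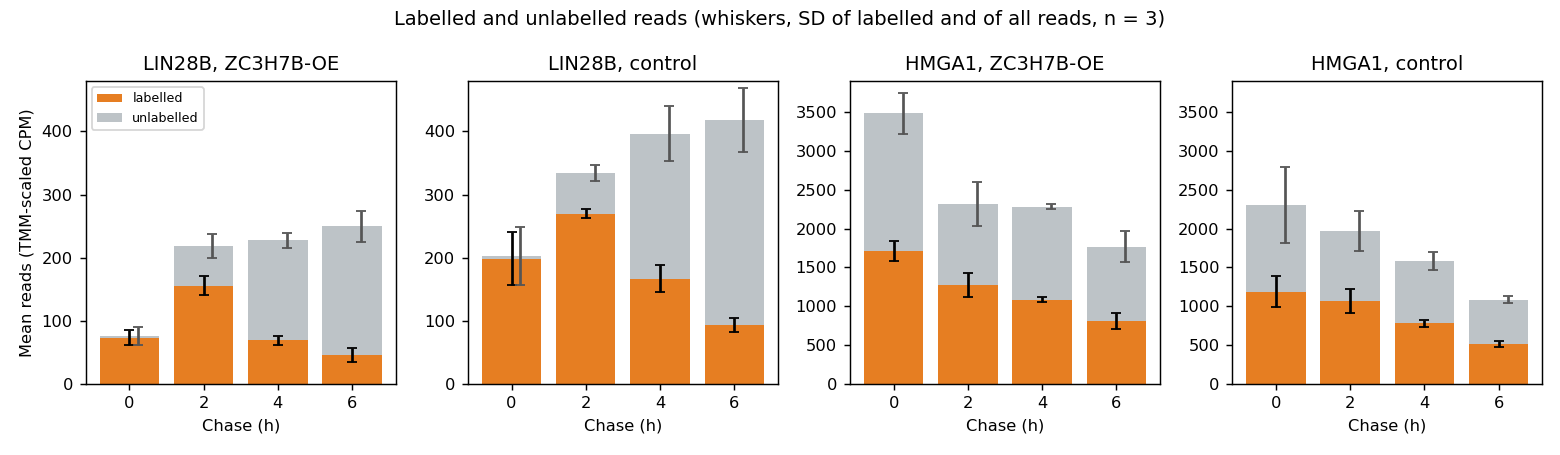
Mean labelled (orange) and unlabelled (grey) reads in TMM-scaled CPM (y axis, from 0) against hours of chase for LIN28B and HMGA1, ZC3H7B-OE left of control for each gene; whiskers are the SD of labelled and of all reads over 3 libraries. Labelled LIN28B reads are highest at 2 h in both lines, and in HMGA1 both kinds are lower at 6 h than at 0 h.

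Labelled reads of LIN28B averaged highest at 2 h in both lines. Over the 4 times in order they averaged 72.9 ± 12.0, 155 ± 15.0, 68.6 ± 6.49 and 45.5 ± 11.0 CPM in ZC3H7B-OE. In control they averaged 198 ± 42.6, 269.9 ± 6.84, 166 ± 21.4 and 93.3 ± 10.8 CPM (SD, n = 3 each). The log2 change over the first 2 h was 1.09 in ZC3H7B-OE and 0.45 in control, or 0.63 in control without control 0 h replicate 3. These changes were singled out after the values were seen and are given with no test.

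LIN28B was not alone in this, and over 8490 genes the median log2 change of labelled reads was -0.12 in ZC3H7B-OE and -0.04 in control. Counted from the lowest change, LIN28B ranked 7780 in ZC3H7B-OE and 6892 in control. In control IGF2BP2 ranked 6789 and IGF2BP1 5267, and in ZC3H7B-OE IGF2BP3 ranked 5946. Labelled reads of IGF2BP2 in control averaged 56.7 ± 12.9 CPM at 0 h and 76.0 ± 16.4 CPM at 2 h, a log2 change of 0.42. Labelled reads of IGF2BP1 in control averaged 441 ± 101 CPM at 0 h and 479.9 ± 46.4 CPM at 2 h. Those of IGF2BP3 in ZC3H7B-OE averaged 28.4 ± 5.42 CPM at 0 h and 32.2 ± 3.04 CPM at 2 h. In the other line of each of these 3 genes, and in both lines of HMGA1, the mean was lower at 2 h than at 0 h.

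With labelled reads scaled by the all-read factors, the labelled slope was below 0 for 5 of 5 tested members in both lines, where 72.7% of genes in ZC3H7B-OE and 75.6% in control had a negative slope that passed. The log2 slope per hour of IGF2BP1 was -0.31 in ZC3H7B-OE and -0.25 in control, that of IGF2BP2 -0.29 in ZC3H7B-OE and -0.17 in control, and that of IGF2BP3 -0.29 in ZC3H7B-OE and -0.23 in control. HMGA1 had -0.17 in ZC3H7B-OE and -0.20 in control. LIN28B had -0.19 in ZC3H7B-OE, a call lost without ZC3H7B-OE 6 h replicate 1 or 3 (-0.16 and -0.15), and -0.21 in control. The slopes differed between the lines for 0 of 5 members and 0 of 8490 genes by edgeR, hence 0% called, with 477 genes at an unadjusted p under 0.05. No member was among these 477, the lowest unadjusted p being 0.0554 for IGF2BP2. Scaled to the labelled total, whose share of all reads is lower at later times, the slopes of HMGA1 and LIN28B turned positive in both lines, and those of IGF2BP2 and IGF2BP3 turned positive in control (0.083 and 0.014). Under that scaling IGF2BP1 in control (adjusted p = 0.957, edgeR) and IGF2BP2 and IGF2BP3 in ZC3H7B-OE (adjusted p = 0.221 and 0.379) no longer passed, and IGF2BP1 in ZC3H7B-OE still did (-0.078, adjusted p = 0.0107). The slopes thus depend on the scaling, and with means that peak at 2 h in several cases no half-lives are given.

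The other genes of these pathways were described by lists, whose members were not all detected. The counts of each list are to be read against the 20.4% of all tested genes that were higher in ZC3H7B-OE and the 25.4% that were lower, and nothing particular to a list is read from them. Of 30 tested let-7-regulated genes outside the group, 5 were higher in ZC3H7B-OE and 10 lower, with a median log2 difference of -0.09, against 0.01 over all tested genes. The lower ones included RRM2, a ribonucleotide reductase subunit, at -1.31, NRAS, a RAS GTPase, at -0.94, and CDK6, a cell cycle kinase, at -0.87. The higher ones, named here because they were few, were DICER1 (0.59), HIC2 (0.46), HRAS (0.44), ARID3B (0.24) and E2F2 (0.19). Of 15 tested genes of let-7 maturation and the LIN28 pathway, 4 were higher and 2 lower, with a median of 0.16. DICER1, which cuts the precursor, was at 0.59 and KHSRP, a let-7 maturation factor, at 0.49, while PRKRA, a DICER1 partner, was at -0.93 and TRIM25, a LIN28A cofactor, at -0.47. The others that were higher, named after their values were seen, were TARBP2, a DICER1 partner, at 0.38 and DGCR8, a subunit of the nuclear processing complex, at 0.27.

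Of 6 tested IGF2BP partners, 2 were higher and 1 lower, with a median of -0.07. The RNA-binding proteins ELAVL1 and YBX1 were at 0.22 and 0.26, MATR3 was at -0.61, and DHX9, a helicase, gave -0.17 and did not pass (adjusted p = 0.130, edgeR). The call of ELAVL1 was lost without the 6 h libraries and that of YBX1 without the 4 h libraries. Of 7 tested mRNAs known to be bound by IGF2BP proteins, 1 was higher, ACTB, encoding beta-actin, at 0.30, and 3 were lower, with a median of -0.25. The lower ones included CCND1, a cyclin, at -0.93, which also stands in the let-7 list.

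Of 11 tested high mobility group genes outside the group, 1 was higher and 4 lower, with a median of 0.07. The lower ones were HMGB1 at -0.98, HMGN5 at -0.65, HMGB3 at -0.48 and HMGB2 at -0.28, chromatin proteins of other branches than HMGA1. The higher one, named after its value was seen, was SSRP1, a histone chaperone subunit, at 0.25. Of 6 tested fetal and oncofetal genes 2 were lower by edgeR and the others did not pass, with a median of -0.31. The lower ones were PEG10, an imprinted retrotransposon-derived gene, at -0.37, and PLAG1, a growth-related transcription factor, at -0.31, whose call was lost in 5 alternatives, among them without control 0 h replicate 1 (-0.22, adjusted p = 0.0806). MEST gave -0.74 and NR6A1 0.16, and neither passed (adjusted p = 0.127 and 0.178).

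**Figure D5:**
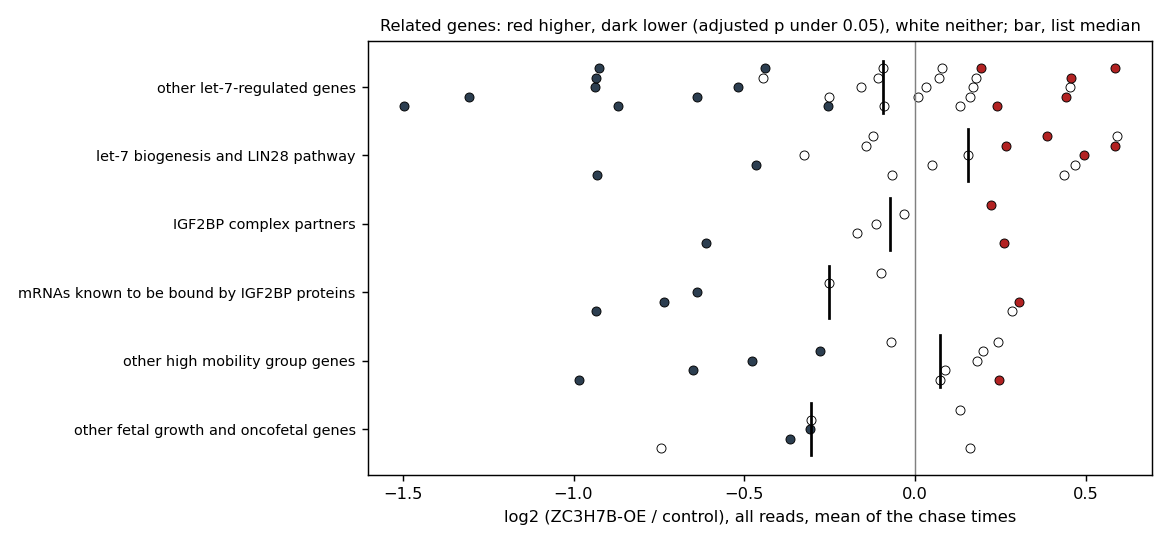
Log2 difference between ZC3H7B-OE and control in all reads, mean of the chase times (x axis), for each tested gene of 6 related lists; red points are higher, dark points lower, white points did not pass, and the bar is the list median. Each list spreads to both sides of 0, with medians between -0.31 and 0.16.

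The genes whose level over the 24 libraries was most like each member were found by Pearson's r of log2(CPM + 1) among 5881 genes with a mean of at least 20 CPM. For LIN28B they were AC015987.2, THAP5 and WWTR1, each with r = 0.96, and for HMGA1 they were FAM213B, CDC37 and CCDC3, each with r = 0.97. For IGF2BP3 they were RGS5, GPX8 and C1orf131 (r = 0.86, 0.84 and 0.82), for IGF2BP1 ANKRD52, ARHGAP17 and SKI (0.84, 0.84 and 0.81), and for IGF2BP2 PRX, HCFC1 and ICOSLG (0.75 each). These libraries share lines and chase times, so the values are a description.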

How the data were processed

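The values are raw read counts per gene as deposited, in a table that counts every read and another limited to T>C-converted reads, each with 19692 entries. The submitters' processing notes name fastp, without a version, and build GRCh37. The sources used here do not give the aligner, the conversion threshold, the counted region or the use of strand. No levels are compared between genes, and coordinates are not used. Counts were analysed in R 4.3.3 with edgeR 4.0.16 (filterByExpr with a minimum count of 10, TMM, robust quasi-likelihood fits with 1 mean per group over all 24 libraries) and Benjamini-Hochberg adjustment over all genes tested, at a threshold of 0.05. Labelled odds were fitted on labelled and unlabelled counts of each library. Alternatives used DESeq2 1.42.0, limma 3.58.1, other scalings, no filter, a replicate block, and leaving out each library or time. Fits were also run on simulated data with the same spread for every gene and independent libraries, and the outcome is not reported here. The genes named are all members, up to 4 genes per list with the smallest adjusted p, the 3 most like genes per member, and ZC3H7B. Some list genes that this rule names are not reported here. Members and lists were chosen with earlier results of these data known. The transcript used to count let-7 matches was chosen after the longest 3′ UTR gave HMGA2 none, and both results are given. Depth was 1502068 to 3676254 reads per library. Without molecular identifiers, PCR copies count as separate reads.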

Additional observations from a re-analysis of the deposited data

How the results depend on the processing

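The calls of LIN28B, IGF2BP3 and HMGA1 in the mean line difference, and of LIN28B and IGF2BP3 in the mean labelled odds, were kept under all alternatives run. Scaled to the labelled total, slopes per hour turned positive: HMGA1 0.062 in ZC3H7B-OE and 0.040 in control, LIN28B 0.061 in ZC3H7B-OE and 0.046 in control, ZC3H7A 0.0241 in both lines, IGF2BP2 0.083 and IGF2BP3 0.014 in control. That scaling also gave 2501 called slopes in ZC3H7B-OE (6353 otherwise), 3126 in control (6586), 2 slope differences (0), 50 genes in the odds at 0 h (90) and 139 at 2 h (525). Slopes over 2 to 6 h gave 63 slope differences. The interaction called 174 genes, against 748 with DESeq2, 51 with limma-voom and 942 without a filter, and the line difference in the 6 h change called 253, against 576, 149 and 651. Using only the libraries of a time gave 791 called genes at 0 h (3136), 3104 at 4 h (1776) and 3286 at 6 h (1583). Causes were not tested.

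Leaving out 1 library gave these numbers of called genes: 94 to 628 for the line difference in the 6 h change, 33 to 110 for the odds at 0 h, 245 to 942 at 2 h, 173 to 477 at 4 h, 392 to 778 at 6 h, 0 to 1 for the slope difference, 48 to 709 for the interaction, 575 to 1670 for the line difference at 2 h, 1035 to 2839 at 4 h, 891 to 2669 at 6 h.

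Between the lines at the same time, replicate numbers showed no clear pairing. Of 12 same-number pairs, 1 had a correlation of deviations over 0.1 (range -0.12 to 0.22). Pairing across chase times within a line was not examined in this way. With the replicate block, 4541 genes were called in the mean line difference (4596 without) and 132 in the interaction, and the mean difference of IGF2BP2 lost its call (adjusted p = 0.0530, edgeR), the one call of a member printed here that it changed. Depth limits HMGA2 and LIN28A, which had too few reads to compare.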
